A study of Mus musculus with 16 samples.

Results

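The mouse genes Igf2, Cdkn1c and Dlk1 are imprinted, which means that 1 parental copy is kept silent. This is controlled by DNA methylation that differs between the parental copies, and the methylated copy need not be the silent one. They were followed on cDNA arrays through treatment of cells with azacytidine. Members were the probes whose single gene symbol was Igf2 (Entrez Gene 16002), Cdkn1c (12577) or Dlk1 (13386), and this gave 3 genes of the 9930 with a symbol on the array. Igf2 had 1 probe (19185), Cdkn1c had 1 (13103) and Dlk1 had 2 (20248 and 2590). Each of the 3 genes has differentially methylated DNA at or near its locus, and the array measured their RNA only, so no methylation level was read.

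Imprinted genes keep an allele-specific methylation mark that is set in the germ line and copied at each cell division by the maintenance methyltransferase. Azacytidine replaces cytosine in newly made DNA and RNA and binds the methyltransferases irreversibly, and dividing cells then lose methylation. Igf2 encodes a fetal growth factor and is expressed from the paternal copy, while an insulator that binds CTCF on the unmethylated maternal chromosome keeps the enhancers for H19. Cdkn1c encodes the cyclin-dependent kinase inhibitor p57Kip2 and is expressed from the maternal copy, under a neighbouring imprinting centre that also drives the non-coding RNA Kcnq1ot1. Dlk1, also called Pref-1, encodes a membrane protein with epidermal growth factor repeats, related to the Notch ligands and known for holding back fat cell formation, and it is expressed from the paternal copy opposite the maternal non-coding RNA Meg3.

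On each array azacytidine-treated cells were hybridised against their own untreated line in 2 channels. All cells were NIH3T3, an established line of mouse embryo fibroblasts. NIH3T3 transfected with Erbb2, a receptor tyrosine kinase oncogene, received 10 µM azacytidine (8 arrays) or 5 µM (4 arrays). NIH3T3 without the transgene received 10 µM (4 arrays), and both Erbb2 doses were set against untreated Erbb2 cells. The vector and promoter of the transgene, the number of clones, the time of treatment and the number of cultures are not stated in the labels, whose protocol text speaks of organs and control animals rather than cultured cells, so each p-value reflects only the variation from array to array, which may be technical.

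Every value is a log2 ratio, read as treated over untreated. The deposited numbers were taken as Cy5 over Cy3, and the sign was turned on arrays whose treated RNA carried Cy3, as on 50% of the arrays. Each direction is therefore the likely one only. In untransfected cells both channels of an array bear the same dye label, so there the dye of channel 1 was used and all signs of that group could be the opposite. An array gave 16153 to 18507 ratios, and arrays 3, 5 and 6 of Erbb2 cells at 10 µM had the widest spread. Signal intensities were not analysed here, so it is unknown whether a probe lay above background, a level in one gene cannot be set against another, and the fibroblast identity of the cells cannot be checked by level. In bulk RNA, fewer cells that express a gene and less RNA per cell cannot be told apart.

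DNA methylation in mouse cells sits mostly at CG dinucleotides, so the windows upstream of the annotated starts were read for it in RefSeq sequence (GRCm38.p6), 250 bases before each start. Igf2 had 4 such windows and Dlk1 had 1, and Cdkn1c had no entry. From the farthest upstream start of Igf2 to the nearest, the windows held 1, 10, 22 and 6 CG, and the Dlk1 window held 8, against a median of 6 over 32851 windows of all genes. Of all windows, 92.1% held at least 1 CG, 43% at least 8 and 14.8% at least 22. The lines below show the CG-poorest and the CG-richest start of Igf2 and that of Dlk1, because they span the range of CG content among these genes. CG, which reads the same on both strands, is in capitals. The Igf2 windows lie on the minus strand at chr7:142666817-142667066 and chr7:142658805-142659054, and the Dlk1 window on the plus strand at chr12:109452573-109452822.
Igf2, start farthest upstream: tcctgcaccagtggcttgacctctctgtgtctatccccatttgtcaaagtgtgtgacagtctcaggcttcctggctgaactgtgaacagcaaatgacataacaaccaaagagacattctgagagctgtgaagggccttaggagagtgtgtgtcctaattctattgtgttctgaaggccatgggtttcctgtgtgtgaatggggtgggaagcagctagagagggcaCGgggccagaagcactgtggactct
Igf2, CG-richest start: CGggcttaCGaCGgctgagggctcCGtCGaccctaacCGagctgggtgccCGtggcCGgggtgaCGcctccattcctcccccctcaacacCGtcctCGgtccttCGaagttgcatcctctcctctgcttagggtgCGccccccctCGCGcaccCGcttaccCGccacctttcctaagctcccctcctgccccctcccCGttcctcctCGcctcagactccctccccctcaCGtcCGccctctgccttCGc
Dlk1: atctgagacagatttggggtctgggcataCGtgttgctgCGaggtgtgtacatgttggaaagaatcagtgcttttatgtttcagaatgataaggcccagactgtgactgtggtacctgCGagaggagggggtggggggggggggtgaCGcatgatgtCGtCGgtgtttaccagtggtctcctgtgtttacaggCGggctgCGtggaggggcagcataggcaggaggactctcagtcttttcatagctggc
Which of the Igf2 starts the probe's RNA came from was not measured.

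Of the 3 genes, 0 passed the threshold of a Benjamini-Hochberg adjusted p of 0.05 in limma in any treated group, and 0 had an unadjusted p under 0.05 there, a threshold met by 10.8%, 6.33% and 11.5% of all features. Of all 12420 features tested, 1.26% passed in Erbb2 cells at 10 µM, 0.209% in Erbb2 cells at 5 µM and 2.73% in untransfected cells. The intervals given for each gene show which sizes of change lie within the error of the arrays.

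**Figure D1:**
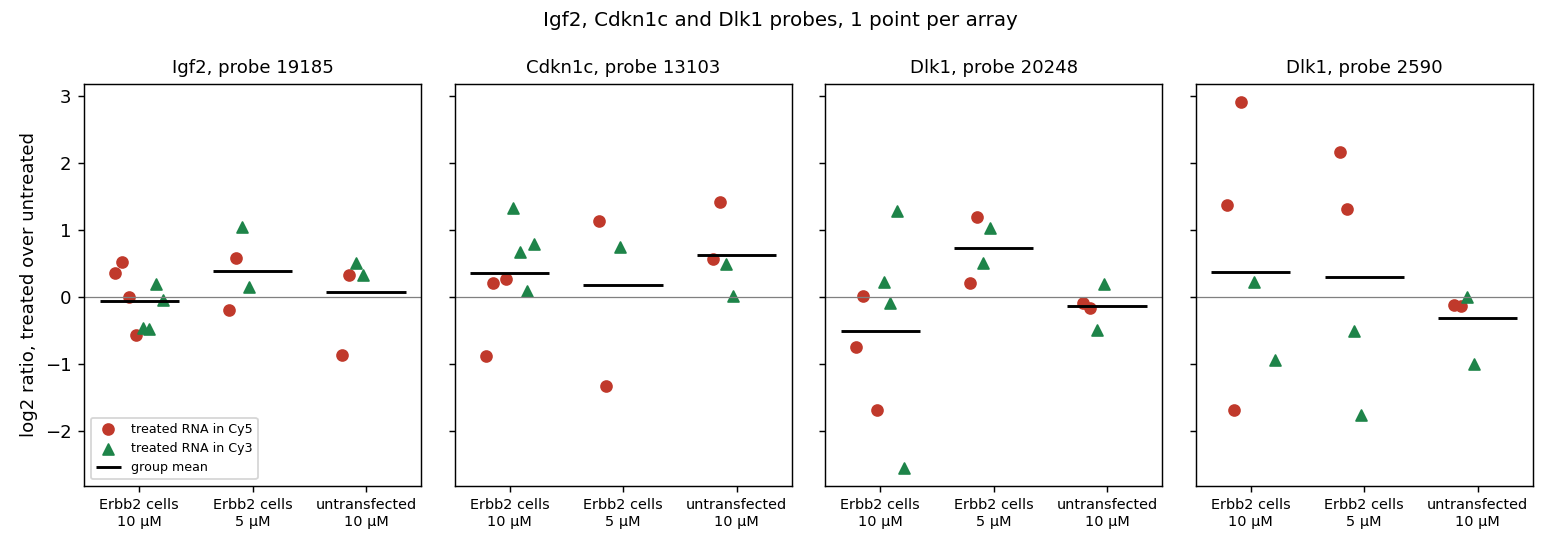
Log2 ratio of treated over untreated RNA (vertical axis) for each member probe, with 1 point per array, circles for treated RNA in Cy5, triangles for treated RNA in Cy3 and a line at the mean of each group. Igf2 sits between -0.868 and 1.052 on all 16 arrays, while the Dlk1 probes spread from -2.543 to 2.918.

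Igf2, the growth factor, was read on all 16 arrays. In Erbb2 cells at 10 µM its log2 ratios ran from -0.565 through a median of -0.0195 to 0.528, with 3 arrays above 0 and 5 below. The arrays lay on both sides of 0 with either dye. The fitted value was -0.06 ± 0.19 (SE, n = 8), or 0.961-fold, with a 95% interval from -0.46 to 0.34. That interval spans 0.729-fold to 1.27-fold, and the adjusted p from limma was 0.948. This was the narrowest interval of any member in any group.

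In Erbb2 cells at 5 µM the 4 Igf2 ratios were -0.197 and 0.588 where Cy5 marked the treated cells, and 1.052 and 0.147 where Cy3 did. Thus 3 of 4 arrays were above 0, and the highest value was 1 array. The fitted value was 0.40 ± 0.26 (n = 4), or 1.32-fold, with a 95% interval from -0.17 to 0.96 and an adjusted p of 0.996 from limma. Without array 3 it was 0.18. In untransfected cells the ratios were -0.868 and 0.329 in Cy5, and 0.518 and 0.332 in Cy3. Again 3 of 4 arrays were above 0, with array 1 far below the others. The fitted value was 0.08 ± 0.26 (n = 4), interval -0.49 to 0.64 and adjusted p 0.998 from limma, and without array 1 it was 0.40.

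In order of fitted value the groups were Erbb2 at 5 µM, untransfected and Erbb2 at 10 µM, and the ratios of neighbouring groups overlapped. Igf2 varied less between arrays than most features. Its residual SD of 0.516 was at percentile 28.8 of all features, whose median was 0.739. Among all features, its fitted value stood at percentile 43.0, 85.8 and 55.0 in Erbb2 cells treated with 10 µM, those treated with 5 µM and untransfected cells respectively.

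Cdkn1c, the cell cycle inhibitor, was read on 14 arrays, without array 3 at either dose in Erbb2 cells. At 10 µM its ratios ran from -0.875 through a median of 0.274 to 1.329, and 6 of 7 arrays were above 0. The low array was array 1, with the treated RNA in Cy5. By dye, the mean was -0.13 over 3 arrays in Cy5 and 0.72 over 4 in Cy3. The fitted value was 0.33 ± 0.30 (n = 7), or 1.26-fold, with a 95% interval from -0.32 to 0.98, which reaches 1.98-fold, and an adjusted p of 0.747 from limma.

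At 5 µM the Cdkn1c ratios were 1.134, -1.331 and 0.745 on arrays 1, 2 and 4. They differed in sign between the arrays of 1 dye, and the fitted value of 0.25 ± 0.46 (n = 3) had an interval from -0.76 to 1.25. Its adjusted p from limma was 0.9999. Leaving out array 1 gave -0.29 and leaving out array 2 gave 0.94, so the direction depended on 1 array. In untransfected cells the ratios were 0.577 and 1.425 in Cy5, and 0.497 and 0.022 in Cy3, all 4 above 0. This was the group with the highest Cdkn1c value, 0.63 ± 0.39 (n = 4), or 1.55-fold, with an interval from -0.23 to 1.49 and an adjusted p of 0.671 from limma. It stood at percentile 91.2 of all features.

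The order for Cdkn1c was untransfected, Erbb2 at 10 µM and Erbb2 at 5 µM, again with ratios of neighbouring groups overlapping. The residual SD was 0.830, at percentile 57.5 of all features. Counting the groups together, 12 of 14 arrays gave a Cdkn1c ratio above 0 as turned here, and 5 of 14 as deposited.

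Dlk1, the regulator of fat cell formation, had a probe on 15 arrays (20248), on which the fit rests, and a sparser one on 13 (2590). Probe 20248 ran from -2.543 through a median of -0.09 to 1.294 in Erbb2 cells at 10 µM, with 3 of 7 arrays above 0. The lowest value was array 8 and the highest array 7, both with the treated RNA in Cy3. The fitted value was -0.52 ± 0.35 (n = 7), or 0.698-fold, with an interval from -1.27 to 0.23 and an adjusted p of 0.634 from limma. Without array 8 it was -0.16.

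At 5 µM probe 20248 gave 0.209 and 1.203 in Cy5, and 0.516 and 1.04 in Cy3. All 4 arrays were above 0, and the means of the dyes were alike, at 0.71 and 0.78. The fitted value was 0.74 ± 0.46 (n = 4), or 1.67-fold, the highest of the 9 values of members in treated groups and at percentile 94.6 of all features. Its interval from -0.25 to 1.73 held 0, and the adjusted p from limma was 0.976. In untransfected cells the ratios were -0.08, -0.159, -0.484 and 0.191, with 1 of 4 arrays above 0. The fitted value there was -0.13 ± 0.46 (n = 4), with an interval from -1.12 to 0.85 and an adjusted p of 0.998 from limma.

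Probe 2590 of Dlk1 gave other values. It had a ratio on 5 of the 8 arrays at 10 µM, too few for the filter, and they ran from -1.686 through 0.235 to 2.918. At 5 µM it read 2.17 and 1.311 in Cy5, but -0.509 and -1.752 in Cy3. As deposited, before any sign was turned, all 4 of these ratios were above 0, so the sign of the turned value went with the dye. In untransfected cells it read -0.113, -0.138, 0.008 and -0.994. Fitted with a looser filter, this probe had 0.24 ± 0.56 and 0.31 ± 0.63 at the higher and lower dose in Erbb2 cells, and -0.31 ± 0.63 in untransfected cells, with adjusted p above 0.9 in limma.

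**Figure D2:**
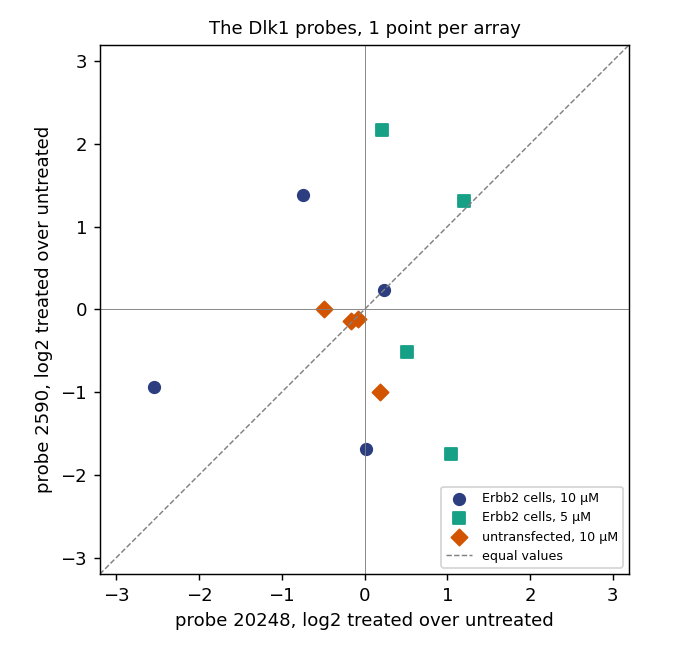
Log2 ratios of Dlk1 probe 2590 (vertical axis) against probe 20248 (horizontal axis) on the 12 arrays with both, with a symbol for each group and a dashed line at equal values. A few points sit on the line and the others are spread to both sides, with a median gap of 1.11 between the probes.

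On the 12 arrays with both Dlk1 probes the sign was the same on 6 and opposite on 6. Pearson's r between them was 0.0856 across arrays, given as a description of points that share arrays and dyes. Across 1578 genes with exactly 2 probes, the median of the same r was 0.0136, and 60.5% of those genes lay below Dlk1. Most genes with 2 probes thus had an r near or below that of Dlk1.

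Dose was compared in Erbb2 cells, as 10 minus 5 µM, where 0% of the 12420 features passed and 538 had an unadjusted p under 0.05. The difference for Dlk1 was -1.26 ± 0.58, with a 95% interval from -2.50 to -0.02. Its unadjusted p was 0.0467, as for 4.33% of all features, and its adjusted p from limma was 0.998, so the difference did not pass. The 7 ratios at 10 µM and the 4 at 5 µM overlapped, and without array 8 the difference was -0.90. With probe 2590 it was -0.07 ± 0.84. Igf2 had -0.45 ± 0.32 and Cdkn1c 0.08 ± 0.55, with intervals from -1.15 to 0.24 and from -1.12 to 1.29 and adjusted p of 0.998 from limma for each.

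The lines were compared at 10 µM, as Erbb2-transfected minus untransfected cells, where 0.813% of features passed. Igf2 had -0.13 ± 0.32, Cdkn1c -0.30 ± 0.50 and Dlk1 -0.39 ± 0.58, and 0 of the 3 passed, with adjusted p from 0.891 to 0.939 in limma. The intervals ran from -0.83 to 0.56, from -1.38 to 0.78 and from -1.63 to 0.85. This contrast depends on the doubtful dye labels of the untransfected arrays, and with their signs reversed Cdkn1c had 0.96 (limma adjusted p 0.504).

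**Figure D3:**
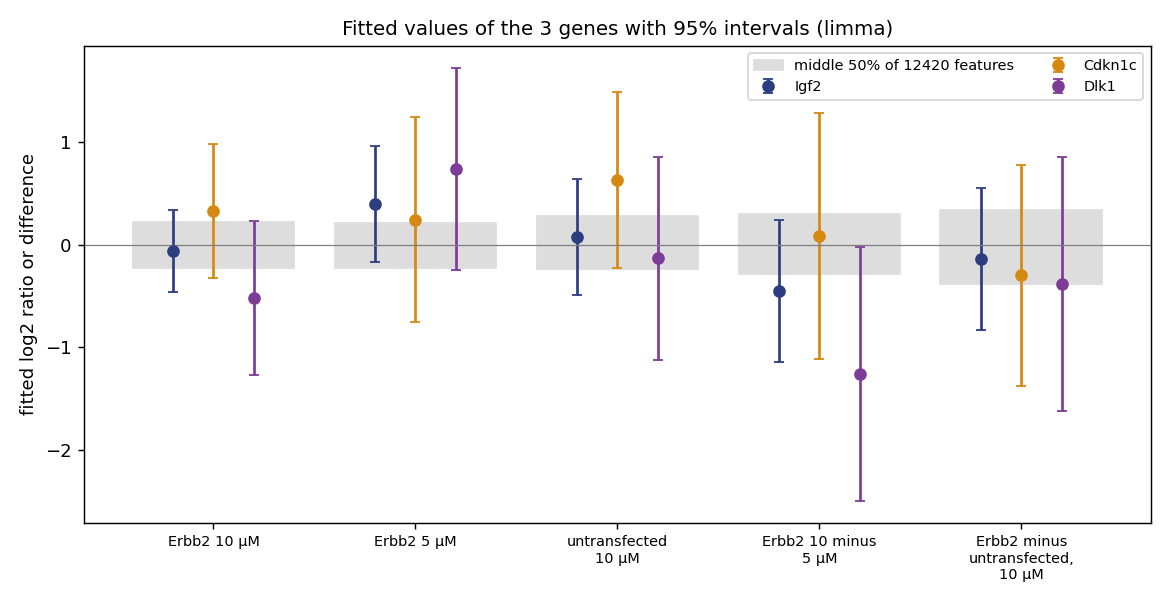
Fitted log2 ratio of each gene (points) with its 95% interval (bars) in the 3 treated groups, and the fitted difference in the dose and line contrasts, over the middle 50% of the 12420 features (grey). Of 15 intervals, the 1 for Dlk1 in the dose contrast does not reach 0.

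Other imprinted genes were read from a list of 73, of which 38 had a probe and 31 passed the filter. In each of the 3 groups and both contrasts 0 of the 31 passed, higher or lower. The shares of all features were 1.26% for the higher Erbb2 dose, 0.209% for the lower and 2.73% for the untransfected line. For the dose and line contrasts they were 0% and 0.813%. With shares this low, a count of 0 cannot set the 31 genes apart from other features. The median of the 31 was -0.06 in Erbb2 cells given 10 µM, 0.03 in those given 5 µM and 0.03 in the untransfected line, beside medians of -0.00, -0.02 and 0.03 over all features. Of the 31 genes, 6 had a fitted value below 0 in all 3 groups, 4 above 0 in all 3 and 21 were mixed. The fitted values ran from -1.19 to 0.83 at 10 µM, from -1.48 to 1.59 at 5 µM and from -0.84 to 0.82 in untransfected cells, and each value of Igf2, Cdkn1c and Dlk1 fell inside those ranges.

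**Figure D4:**
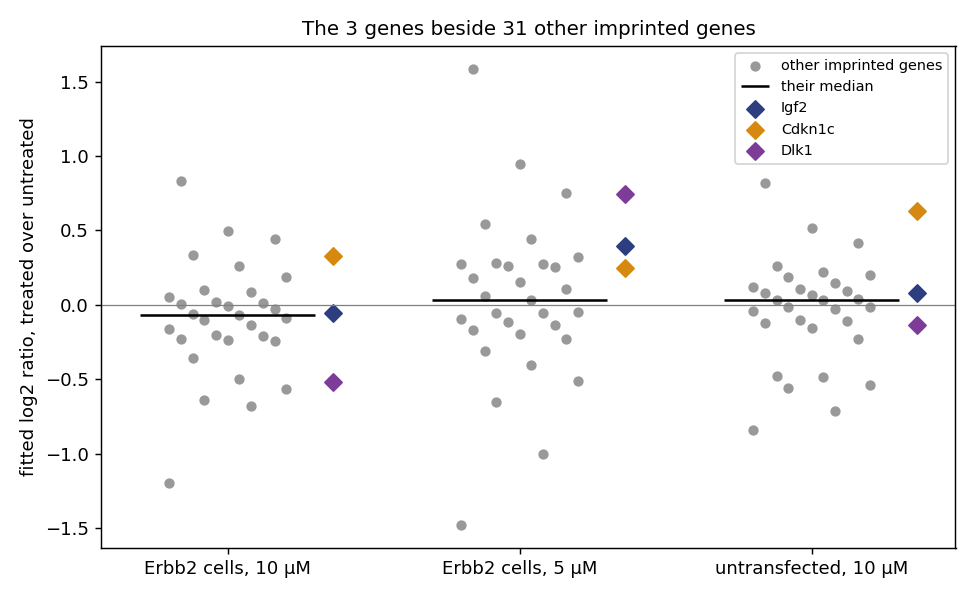
Fitted log2 ratio of treated over untreated RNA (vertical axis) of 31 other imprinted genes (grey points, spread sideways for sight) with their median (line), beside Igf2, Cdkn1c and Dlk1 (diamonds), in the 3 treated groups. The 3 genes lie within the range of the other imprinted genes in each group.

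Igf2 and Cdkn1c lie close together on chromosome 7, in RefSeq with 8 protein-coding genes between them, and Dlk1 lies on chromosome 12. Of the 10 annotated genes on either side, 8 were measured near Igf2, 9 near Cdkn1c and 5 near Dlk1, a window chosen after the values were known. They made 19 different genes, of which 0 passed in limma in any treated group, beside 1.26%, 0.209% and 2.73% of all features. The smallest adjusted p of the 19 was 0.457, 0.996 and 0.219 from limma in the same order of groups. H19, Meg3 and Kcnq1ot1, the non-coding partners, had no probe under those symbols. Among the measured imprinted neighbours, Ascl2, a transcription factor of the placenta, had -0.56 ± 0.26 in Erbb2 cells given 10 µM, -0.51 ± 0.37 in those given 5 µM and -0.23 ± 0.37 in the untransfected line. Phlda2, which restrains growth of the placenta and lies near Cdkn1c, had 0.10 ± 0.16, -0.31 ± 0.22 and -0.02 ± 0.22. Begain, the imprinted gene measured nearest to Dlk1, had -0.06 ± 0.29, 0.28 ± 0.41 and -0.10 ± 0.41. Fitted values above 0 in Erbb2 cells at the higher dose, the lower dose and in the untransfected line were found for 4, 3 and 3 of the 8 neighbours of Igf2, for 4, 4 and 5 of the 9 of Cdkn1c, and for 1, 4 and 0 of the 5 of Dlk1.

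The partners of Igf2 in its pathway are its receptors and binding proteins. Of 21 listed genes of this axis 12 were measured, and 0 passed in any group or contrast. The shares of all features were 1.26%, 0.209% and 2.73% in the 3 groups, and 0% and 0.813% in the dose and line contrasts. With shares this low, a count of 0 cannot set the 12 genes apart from other features. The median of the 12 was 0.19 in Erbb2 cells at 10 µM, with 10 of 12 above 0, and -0.00 and 0.08 at 5 µM and in untransfected cells. The signalling receptor Igf1r had 0.51 ± 0.15 in Erbb2 cells at 10 µM (limma adjusted p 0.170), 0.22 ± 0.21 at 5 µM and 0.14 ± 0.21 in untransfected cells. In the same order the binding protein Igfbp4 had 0.67 ± 0.26, 0.35 ± 0.36 and -0.95 ± 0.36 (limma adjusted p 0.344, 0.9999 and 0.271). Igf2r, which clears Igf2 and is itself imprinted, had 0.02 ± 0.17, 0.32 ± 0.25 and -0.04 ± 0.25, with adjusted p from 0.979 to 0.9999 in limma.

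Cdkn1c acts on the cyclins and kinases of G1 and S phase. Of 23 listed genes of that step 13 were measured, and 1 passed, in Erbb2 cells at 10 µM, where 1.26% of all features did. This was the replication clamp Pcna, at -0.48 ± 0.09 with an adjusted p of 0.0154 from limma. It did not pass without array 1 (adjusted p 0.0562) or without array 4 (0.0522). The median of the list was 0.07, -0.14 and 0.31 in the 3 groups, with 10 of 13 above 0 in untransfected cells. There the kinase Cdk2, which p57Kip2 inhibits, had 1.36 ± 0.48 (limma adjusted p 0.230). In Erbb2 cells Cdk2 had 0.08 ± 0.34 at 10 µM and 0.22 ± 0.56 at 5 µM. The smallest p of the list in untransfected cells was that of the cyclin gene Ccna2, at 0.89 ± 0.26 (limma adjusted p 0.101).

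Dlk1 stands between the Notch pathway and fat cell formation. Of 13 measured Notch genes, 8, 6 and 5 were above 0 in the 3 groups, with medians of 0.12, -0.01 and -0.10. Among them 1 passed in untransfected cells, where 2.73% of all features did. This was the Notch target Hey1, at -0.79 ± 0.19 with an adjusted p of 0.0343 from limma. It passed in 0 of the 4 fits that left out 1 array, with adjusted p from 0.0990 to 0.172, and did not pass without the dye term (0.0649) or with a looser filter on missing values (0.0591). Dlk2, the closest relative of Dlk1, had -0.78 ± 0.52 in Erbb2 cells at 10 µM and -1.33 ± 0.73 at 5 µM. In untransfected cells it had -0.0043 ± 0.73, and the adjusted p in the 3 groups were 0.632, 0.913 and 0.9995 from limma. Of 12 measured genes of adipogenesis, 5, 7 and 5 were above 0 in the 3 groups, with medians of -0.09, 0.11 and -0.12. In the same order 1, 0 and 1 of the 12 passed, beside 1.26%, 0.209% and 2.73% of all features. In the line contrast 1 passed, beside 0.813%. Cebpd, an early factor of fat cell formation, passed in Erbb2 cells at 10 µM at 1.18 ± 0.17 with an adjusted p of 0.00295 from limma. Klf4, another early regulator, fell by 1.18 ± 0.15 in untransfected cells, with an adjusted p of 0.000396 from limma. In Erbb2 cells at 10 µM it had 0.03 ± 0.10. The line contrast of Klf4, a difference of these ratios and not of levels, was 1.21 ± 0.18 (limma adjusted p 0.00385). Each of these directions in untransfected cells turns if their dye labels were exchanged, and with no array turned Pcna, Hey1, Cebpd and Klf4 did not pass. If the turning is right, a change with treatment has opposite signs with each dye in that fit. It then goes to the dye term and the error, so not passing there cannot show how firm these values are.

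Of 11 measured genes that set, read or keep DNA methylation, 1 passed, in untransfected cells, where 2.73% of all features did. This was the methyl-CpG binding protein Mbd2, at -1.12 ± 0.20 with an adjusted p of 0.00573 from limma. It did not pass with no array turned, a fit that cannot show how firm a value is if the turning is right. The median of this list was -0.12, 0.02 and -0.11. Of the measured markers of other cell types, 0 of 5 for muscle, 0 of 3 for adipocytes, 0 of 5 for epithelium and 0 of 4 for blood passed at either dose in Erbb2 cells. In untransfected cells the muscle light chain Mylpf (-0.78), the epithelial keratin Krt8 (1.13) and the blood cell adaptor Tyrobp (-0.68) passed. Above 0 there were 3 of 5 muscle, 4 of 5 epithelial and 3 of 4 blood markers (medians 0.02, 0.83 and 0.23). Mylpf and Tyrobp were thus below 0 where most of their lists were above. Of 9 fibroblast markers, the matrix genes Fn1 (-1.63) and Col1a2 (-0.79) and the intermediate filament Vim (-0.55) passed in untransfected cells. The matrix gene Sparc (0.68) passed in Erbb2 cells at 10 µM. In untransfected cells 2 of the 9 were above 0 (median -0.31), and in Erbb2 cells at 10 µM 6 were (median 0.16). Fn1 also passed in the line contrast, at 1.68, where 0.813% of all features did. In untransfected cells Col1a2, Vim, Krt8 and Tyrobp passed in 0 of the 4 fits that left out 1 array (adjusted p from 0.0543 to 0.2001), and Mylpf did not pass without array 2 (0.0593). None of these markers passed with no array turned, which again cannot show how firm they are if the turning is right. Their part in the values of Igf2, Cdkn1c and Dlk1 was not tested.

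The genes most like each member over the arrays were sought among those with a symbol and at least 14 arrays in common. For Igf2, among 7365 genes, Pearson's r was 0.833 for Klk1b5, a kallikrein protease, over 15 arrays, 0.763 for Usp42, a deubiquitinase, over 16, and 0.757 for Hic2, a transcription factor, over 15. For Cdkn1c, among 5420 genes and over 14 arrays, it was 0.811 for Zfp317, 0.762 for Ttc23 and 0.745 for Lrrc23. For Dlk1, among 6788 genes, it was 0.842 for Atxn2l and 0.836 for Pvalb, a calcium-binding protein, over 15 arrays, and 0.832 for the helicase Ddx47 over 14. These are the highest of many values over few arrays that share dyes and sign turning, and are given as a description.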

How the data were processed

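RNA of NIH3T3 cells was measured on 16 arrays with 2 channels. The authors deposited 1 log ratio per probe and array, and its scale was taken as log2. Log base, direction, image analysis and normalization are not stated in the labels or the files. The arrays were grouped by their titles. In each array 1 repeated highest value (15.4 to 16.6) was read as a placeholder and set to missing, and no member probe held one. Probes needed a value on 3 of 4 or 6 of 8 arrays of a group, with both dyes. Probes with the same single symbol were averaged, giving 12420 features. Gene names are those of the platform annotation. Of its 14030 probes with 1 symbol, 13994 were found by Entrez ID in RefSeq and 0 symbols changed. 5 probes had several symbols and 6320 had none.

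The turning of signs was checked by the mean Pearson's r between arrays of a group. It was 0.0621 for pairs with the same dye label and -0.0172 for opposite labels, as means of the 3 groups. For opposite labels it was 0.0039 and -0.0027 in Erbb2 cells at 10 and 5 µM, and -0.053 in untransfected cells. By these correlations the turning is weakly based. In Erbb2 cells at 10 and 5 µM and in untransfected cells, 157, 26 and 339 features passed with turning. With no array turned, 2, 0 and 4 did. Neither the mean r nor the count in a group changes if all signs of that group are reversed. They therefore cannot show which direction is treated over untreated.

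limma 3.58.1 in R 4.3.3 fitted 1 model to all arrays, with a coefficient for each group and a shared dye term, followed by eBayes. Each contrast was fitted as a coefficient of its own, tests were two-sided and p-values were adjusted over all features. The dye term of the members had adjusted p from 0.820 to 0.893. The procedure was tested on simulated data. Members, gene lists and tests were chosen with earlier results of these data known. Genes named in the text were the members, the list genes that passed and the 3 genes most like each member, and the others were named after their values were seen. Alternatives covered direction, dye, filters, probes, placeholders, scaling, weights, moderation, samples and the replicate block. Each array's number of ratios, 16153 to 18507, is known but no depth, so the number of arrays limits the precision.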

Additional observations from a re-analysis of the deposited data

Results flagged for a closer look

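In 26 sets of 4 to 8 arrays, those of the member probes and of the further named genes, the gap between each end and its nearest array was compared with the range, which flags about 1 in 20 sets by chance. It flagged 3. In untransfected cells Igf2 had -0.868 on array 1, and the other 3 arrays had 0.329 to 0.518. In the same cells Dlk1 probe 2590 had -0.994 on array 4, with the others between -0.138 and 0.008. Grb10, averaged over its probes, had -1.315 on array 3 in Erbb2 cells at 10 µM, beside a median of -0.40 over the 8 arrays.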

How the results depend on the processing

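Over 15 member values and 31 alternatives, 319 fits gave 279 values of the same sign, 40 reversed and 0 that passed (smallest adjusted p 0.359 from limma). With no array turned, a change with treatment goes to the dye term and the error if the turning is right. That fit therefore cannot show how firm a value is. The features that passed in it were 2 (Erbb2 10 µM), 0 (5 µM), 4 (untransfected) and 0 (line contrast). Igf2 then had 0.14, -0.20, -0.35, 0.34 (dose contrast) and 0.48 (line contrast), Cdkn1c -0.41 and -0.45 at 10 and 5 µM, Dlk1 -0.036 at 5 µM and 0.0135 in untransfected cells, and Grb10 0.80 at 5 µM. None of the named list genes passed then, with 0.027 for Cebpd, -0.0073 for Pcna, -0.27 for Klf4, -0.12 for Mbd2, -0.13 for Hey1 and 0.12 for Klf4 in the line contrast, nor did the named markers, with -0.22 for Sparc, 0.017 for Fn1 and 0.0125 for Vim among them. With the untransfected signs reversed, those cells had -0.078 for Igf2, -0.63 for Cdkn1c, 0.13 for Dlk1, 0.79 for Hey1, 1.18 for Klf4, 1.12 for Mbd2, 0.84 for Grb10, 1.63 for Fn1, 0.79 for Col1a2, 0.55 for Vim, 0.78 for Mylpf, -1.13 for Krt8 and 0.68 for Tyrobp, and the line contrast 351 features, 0.021 for Igf2, 0.96 for Cdkn1c -1.16 for Klf4 and -1.57 for Fn1. The looser filter gave 98 features at 10 µM, 4 at 5 µM, and 0.053 and 0.27 for Dlk1 at 10 µM and in the line contrast. Requiring all 16 arrays, where Cdkn1c and Dlk1 have no value, gave 247, 73 and 189 features at 10 µM, 5 µM and in the line contrast. At 5 µM, fitting probes singly gave 16. Scaling by the median absolute deviation gave 46 there, 0.015 for Igf2 at 10 µM and -0.17 for Cdkn1c in the dose contrast. Quantile scaling gave 41 there, 164 in the line contrast, 0.0078 for Igf2 at 10 µM and -0.063 for Cdkn1c in the dose contrast. Array weights gave 118 at 5 µM, Igf2 0.14 at 10 µM and 0.091 in the line contrast, and Cdkn1c -0.31 by dose. Fits on each comparison's own groups gave 22, 0, 0 and 41 features (10 µM, 5 µM, untransfected, line contrast), Cdkn1c -0.027 by dose, and no call for Mbd2, Hey1 or Pcna, nor for Klf4 in untransfected cells, while Klf4 passed in the line contrast (adjusted p 0.0324). Of the named markers, Fn1 passed there in the line contrast only. With the looser filter Col1a2, Vim, Krt8 and Tyrobp did not pass, Vim did not with robust eBayes (0.0576) or the replicate block (0.0519), and Krt8 did not without the dye term (0.0513). Without arrays 3, 5 and 6 there were 57 features at 10 µM, Igf2 had 0.13 there and 0.052 in the line contrast, Cdkn1c had -0.093 by dose, and Pcna and Cebpd did not pass (adjusted p 0.121 and 0.0654). The sparser Dlk1 probe, an alternative chosen after seeing the data, gave 0.24 at 10 µM and 0.55 in the line contrast. The cause of these shifts was not tested. Replicate numbers did not pair the arrays, with 3 of 12 correlations over 0.1. With the replicate block there were 156, 25, 335, 0 and 106 features, and Dlk1 had -1.28 by dose. Leaving out 1 array gave 103 to 142 features at 10 µM, 5 to 6 at 5 µM, 213 to 259 in untransfected cells, 0 to 0 by dose and 60 to 105 by line. For Igf2 it gave -0.16 to 0.019, 0.18 to 0.59, -0.057 to 0.40, -0.65 to -0.24 and -0.45 to 0.00042 in the same order, for Cdkn1c 0.20 to 0.54, -0.29 to 0.94, 0.27 to 0.93, -0.59 to 0.61 and -0.61 to 0.0496, and for Dlk1 -0.80 to -0.16, 0.53 to 0.89, -0.21 to 0.042, -1.54 to -0.90 and -0.67 to -0.028. The number of arrays limits all of these, and signal over background is unknown.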

Other observations

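Grb10, an imprinted adaptor that restrains insulin and IGF signalling, was chosen from the list of imprinted genes after its values were seen. Averaged over its 2 probes, its log2 ratio was below 0 on all 16 arrays. The values ran from -1.32 to -0.15 in Erbb2 cells at 10 µM, from -2.61 to -0.10 at 5 µM and from -1.22 to -0.26 in untransfected cells. Of 7415 features with a value on all arrays, 103, or 1.39%, were below 0 on every one and 20 were above, and Grb10 was the 1 of 23 imprinted genes among them. The fitted values were -0.50 ± 0.23, -0.9995 ± 0.33 and -0.84 ± 0.33, with adjusted p of 0.467, 0.473 and 0.301 from limma, so Grb10 passed in 0 of the groups. Probe 4353 was below 0 on 12 arrays, including -4.758 on array 3 at 5 µM, and probe 19825 on 14. Without that array the value at 5 µM was -0.43. The groups at 10 and 5 µM in Erbb2 cells were both set against untreated Erbb2 cells.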
